A study of Homo sapiens with 8 samples.

Results

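The snoRNA host genes are long noncoding RNA genes that carry small nucleolar RNAs (snoRNAs) in their introns, and GAS5, SNHG1, SNHG3, SNHG5, SNHG6, SNHG7, SNHG8, SNHG12, SNHG15 and SNHG16 are described here. They were chosen by gene name, and 10 of the 16295 listed genes matched. They were measured by RNA-seq in MM1.S cells, an established human multiple myeloma line of plasma-cell origin, in 8 libraries from 4 groups of 2. The groups had been kept for 24 h with 0.5 uM MS177, 0.5 uM MS177N1, 0.5 uM C24 or the solvent DMSO. All 4 groups are of this 1 cell line with no genetic change named in the labels. As background, MS177 was made to destroy EZH2, the enzyme of the Polycomb repressive complex that methylates histone H3, by linking it to the ubiquitin ligase subunit CRBN. C24 is an inhibitor that occupies the same enzyme and was the starting point of MS177, and MS177N1 is a related control compound without degrading activity. The comparisons ask what the degrader does to these host transcripts beyond what its inhibitor and its control do.

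A snoRNA host gene is transcribed and spliced like a messenger RNA gene, and its snoRNAs are trimmed out of the removed introns to guide the chemical modification and processing of ribosomal RNA. The spliced exons left over carry only short reading frames, and ribosomes that engage them expose many of these RNAs to nonsense-mediated decay (NMD), the cytoplasmic pathway that destroys transcripts with early stop codons. Many hosts start with a terminal oligopyrimidine (TOP) tract, the C-led pyrimidine run at the 5′ end of ribosomal protein messenger RNAs. Spliced RNAs of hosts are known to accumulate when translation stops or growth ceases, as the name of GAS5, growth arrest-specific 5, records.

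The 10 hosts did not move as one block. With MS177 against DMSO, 4 rose (SNHG12, SNHG8, GAS5 and SNHG1), 3 fell (SNHG3, SNHG16 and SNHG15) and 3 did not pass the test (SNHG5, SNHG6 and SNHG7), where a gene was called at a limma adjusted p under 0.05. MS177 changed much of the transcriptome: 57.9% of the 14164 genes tested were called, 28.9% higher and 29.0% lower. The hosts' 7 of 10, with 4 up and 3 down, is therefore to be read against a background in which most genes were called. The median log2 fold change of the 10 was 0.13, and that of all tested genes was 0.00447. The scaling, by median-of-ratios size factors, holds the middle of all genes near 0, so a shift of all genes together would not show. With scaling by total reads the median of all genes was 0.0877, and 58% of the called genes were higher, beside 49.9% here. With MS177N1 and with C24, none of the 10 was called.

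The 5′ ends of the 7 called hosts are shown because a pyrimidine tract at the start is a feature for which many genes of this kind are known. Each sequence is the first 40 bases, or the first exon where that is shorter, of the GENCODE v29 transcript of the gene with the longest leading pyrimidine run, on GRCh38. Capitals mark that run, counted from a first base C. The submitters' processing notes name the older build hg19, so these positions come from the annotation and not from the deposited values. The 4 hosts that rose begin as follows, and SNHG12 has the longest run of the 10 genes.
SNHG12, minus strand of chr1:28581834-28581873: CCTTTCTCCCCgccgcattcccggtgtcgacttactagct
SNHG8, plus strand of chr4:118278758-118278792: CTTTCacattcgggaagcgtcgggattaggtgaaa
GAS5, minus strand of chr1:173867960-173867989: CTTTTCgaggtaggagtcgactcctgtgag
SNHG1, minus strand of chr11:62855440-62855479: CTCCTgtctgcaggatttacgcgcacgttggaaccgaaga
The 3 hosts that fell begin as follows.
SNHG3, plus strand of chr1:28506043-28506082: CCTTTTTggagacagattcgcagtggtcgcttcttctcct
SNHG16, plus strand of chr17:76557769-76557808: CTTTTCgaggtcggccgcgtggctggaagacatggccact
SNHG15, minus strand of chr7:44986531-44986570: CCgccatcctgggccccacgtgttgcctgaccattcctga

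In the transcripts shown, each picked for its longest run, the run did not separate the hosts that rose from those that fell. There GAS5, which rose, and SNHG16, which fell, share their first 11 bases, CTTTTCGAGGT. The run of 7 in SNHG3, with the largest fall, is in 1 of its 3 annotated transcripts. The run of 5 in SNHG1, which rose, is in 1 of its 25. With starts picked in this way and their use unknown, the runs cannot decide whether a pyrimidine start goes with direction. A transcript with a run of 4 or more was annotated for 9 of the 10 hosts, SNHG15 being the exception with a run of 2, and for 10.2% of all 57133 annotated genes. Counted by transcript, such runs led 25 of the 129 annotated transcripts of the 10 hosts (19.4%) and 3.81% of all 206694 transcripts. Genes with many annotated transcripts have more chances to hold a run, GAS5 with 29 transcripts among them, and which of these starts MM1.S cells use was not measured.

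The reads recovered from the deposited values ranged from 20000665 to 26619099 per library. The 10 hosts are well covered: the lowest count of any of them in any library was 176 reads and the highest 7233, and all 10 passed the filter on low values. Values below are normalized reads, that is reads divided by the library's size factor, so levels are compared between libraries and not between genes of different length. Errors of log2 fold changes are standard errors (SE) of the limma fit over all 8 libraries. Whether the replicates were separate cultures is not in the labels; the p-values therefore cover the spread among these libraries, which may be technical. In bulk RNA, fewer cells with a transcript and less of it per cell cannot be told apart. EZH2 mRNA, whose protein is the target of MS177, averaged 2850 ± 43.3 normalized reads with MS177 and 2681 ± 8.10 with DMSO (SD, n = 2 each), a log2 difference of 0.09 ± 0.05 (SE) at a limma adjusted p of 0.155; it is no check of the labels, since the degrader acts on the protein.

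The MS177 replicates differed from each other in the same direction for all these genes. In MS177, all 10 hosts were higher in replicate 1 than in replicate 2, by a median of 0.28 on the log2 scale, whereas 49.0% of all tested genes were higher in replicate 1. The counts were 7 of 10 in MS177N1 and 4 of 10 in C24, with medians of 0.01 and -0.03. In DMSO 9 of 10 hosts were higher in replicate 1, with a median difference of 0.10, beside 48.5% of all tested genes. The difference between the MS177 replicates was smallest for SNHG1, at 0.01, and largest for SNHG3, at 0.34. Cytosolic ribosomal protein genes, the classical TOP messenger RNAs, were higher in MS177 replicate 1 in 68 of 77 cases, but by a median of only 0.08. Since hosts that rose and hosts that fell were both higher in replicate 1, leaving it out makes the rises smaller and the falls larger; the 7 calls stood without either MS177 library.

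**Figure D1:**
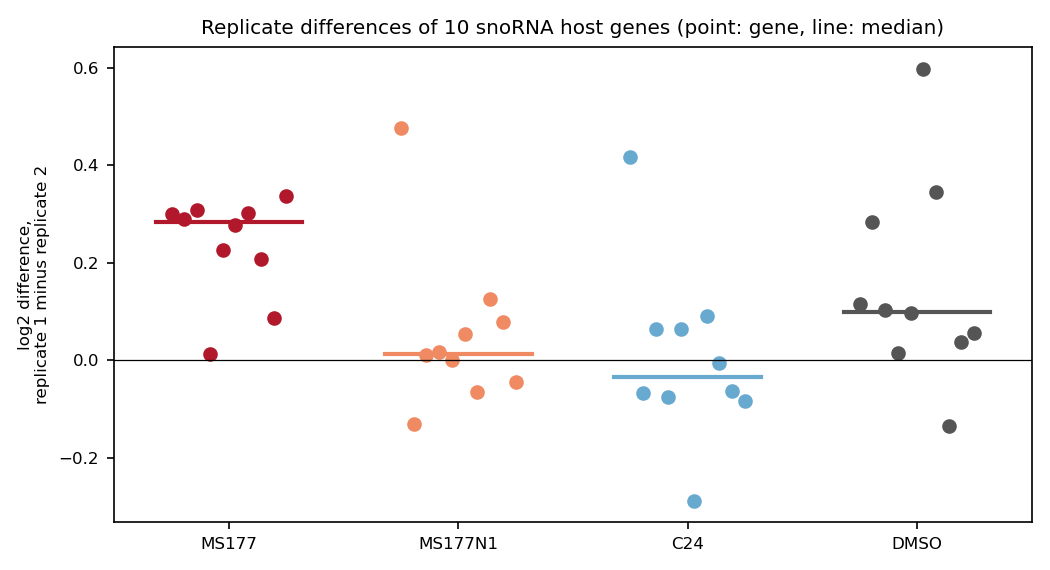
Difference between the replicates of each group for the 10 host genes, as log2 normalized reads (plus 1) of replicate 1 minus replicate 2; each point is a gene and the line is the median. All 10 points of MS177 lie above 0, with a median of 0.28, against a median of 0.10 in DMSO.

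SNHG12, which holds 3 box H/ACA snoRNAs (SNORA16A, SNORA44 and SNORA61) and the box C/D snoRNA SNORD99 by the RefSeq annotation, rose most. Its normalized reads were 628.0 and 509.7 with MS177, 329.4 and 236.5 with MS177N1, 260.2 and 194.7 with C24, and 291.7 and 269.2 with DMSO. Both MS177 libraries lay above all 6 others, and the other groups overlapped one another apart from C24, both of whose libraries lay under DMSO. The level with MS177 was 2.02 times that with DMSO, a log2 fold change of 1.01 ± 0.17 (SE, limma adjusted p = 0.000211). Against MS177N1 the log2 fold change was 1.02 (limma adjusted p = 0.000205) and against C24 it was 1.33 (limma adjusted p = 1.91e-05).

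GAS5 holds the most snoRNAs of the 10, with 10 of the box C/D class, among them SNORD44, SNORD47 and SNORD74 to SNORD81, and SNORA103. Its normalized reads were 3907 and 3155 with MS177, 2277 and 2260 with MS177N1, 2469 and 2362 with C24, and 2464 and 2294 with DMSO. The 6 libraries without MS177 fell in a narrow band, and both MS177 libraries lay well above it although they differed from each other. GAS5 was 1.48 times as high with MS177 as with DMSO, a log2 fold change of 0.56 ± 0.08 (SE, limma adjusted p = 4.28e-05), with values of 0.63 against MS177N1 and 0.54 against C24.

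SNHG8, the host of SNORA24, rose by about as much as GAS5. It had 2004 and 1639 normalized reads with MS177, 1243 and 1361 with MS177N1, 1344 and 1408 with C24, and 1349 and 1108 with DMSO. The 3 groups without MS177 overlapped, and none of their 6 libraries reached the lower MS177 library. The log2 fold change against DMSO was 0.57 ± 0.11 (SE, limma adjusted p = 0.000491). Against MS177N1 it was 0.48, and against C24 it was 0.40 (limma adjusted p = 0.00588), which became 0.25 without MS177 replicate 1 (limma adjusted p = 0.0390).

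SNHG1 holds 8 named box C/D snoRNAs, SNORD22 and SNORD25 to SNORD31. It rose least among the 4 and was the most even between replicates, with 2959 and 2934 normalized reads with MS177, 2486 and 2457 with MS177N1, 2325 and 2451 with C24, and 2529 and 2503 with DMSO. Here the small change exceeded a still smaller spread. The log2 fold change against DMSO was 0.23 ± 0.05 (SE, limma adjusted p = 0.00168), with 0.25 against MS177N1 and 0.30 against C24.

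SNHG1 starts within 2 kb of SLC3A2 on the other strand; SLC3A2 encodes the heavy chain of amino acid transporters at the cell surface and is a known target of the stress factor ATF4. SLC3A2 had 17290 and 15320 normalized reads with MS177, 7539 and 7428 with MS177N1, 7408 and 7656 with C24, and 8011 and 7552 with DMSO. Its log2 fold change of 1.06 ± 0.05 (SE, limma adjusted p = 2.12e-10) stands beside 0.23 in SNHG1. GAS5 likewise starts within 2 kb of ZBTB37 on the other strand, a zinc finger gene that rose by 0.56 ± 0.16 (SE, limma adjusted p = 0.00722) against DMSO but was not called against MS177N1 (limma adjusted p = 0.0863) or C24 (limma adjusted p = 0.0932). Neither SNHG1 and SLC3A2 nor GAS5 and ZBTB37 share exon bases in GENCODE v29.

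SNHG3, the host of SNORA73A and SNORA73B, fell most. Its normalized reads were 422.2 and 333.9 with MS177, 785.8 and 810.3 with MS177N1, 754.0 and 798.5 with C24, and 887.1 and 853.7 with DMSO. Both MS177 libraries lay far under the other 6, while MS177N1 and C24 overlapped each other and lay a little under DMSO. The level with MS177 was 2.31-fold lower than with DMSO, a log2 fold change of -1.21 ± 0.10 (SE, limma adjusted p = 4.79e-08). It was -1.09 against MS177N1 (limma adjusted p = 1.73e-07) and -1.05 against C24 (limma adjusted p = 2.53e-07).

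SNHG16 holds the box C/D snoRNAs SNORD1A, SNORD1B and SNORD1C. It had 970.9 and 913.7 normalized reads with MS177, 1548 and 1466 with MS177N1, 1531 and 1599 with C24, and 1520 and 1480 with DMSO. The replicates were close in every group, and only the MS177 libraries left the common level. The log2 fold change against DMSO was -0.67 ± 0.07 (SE, limma adjusted p = 3.67e-07), with -0.68 against MS177N1 and -0.73 against C24.

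SNHG15, the host of SNORA9, had 239.0 and 206.7 normalized reads with MS177, 346.2 and 317.4 with MS177N1, 315.0 and 316.3 with C24, and 325.8 and 357.6 with DMSO. The MS177 libraries again lay under all others, and among those the C24 libraries lay just under the DMSO ones. The log2 fold change against DMSO was -0.62 ± 0.12 (SE, limma adjusted p = 0.000335), with -0.57 against MS177N1 and -0.50 against C24.

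**Figure D2:**
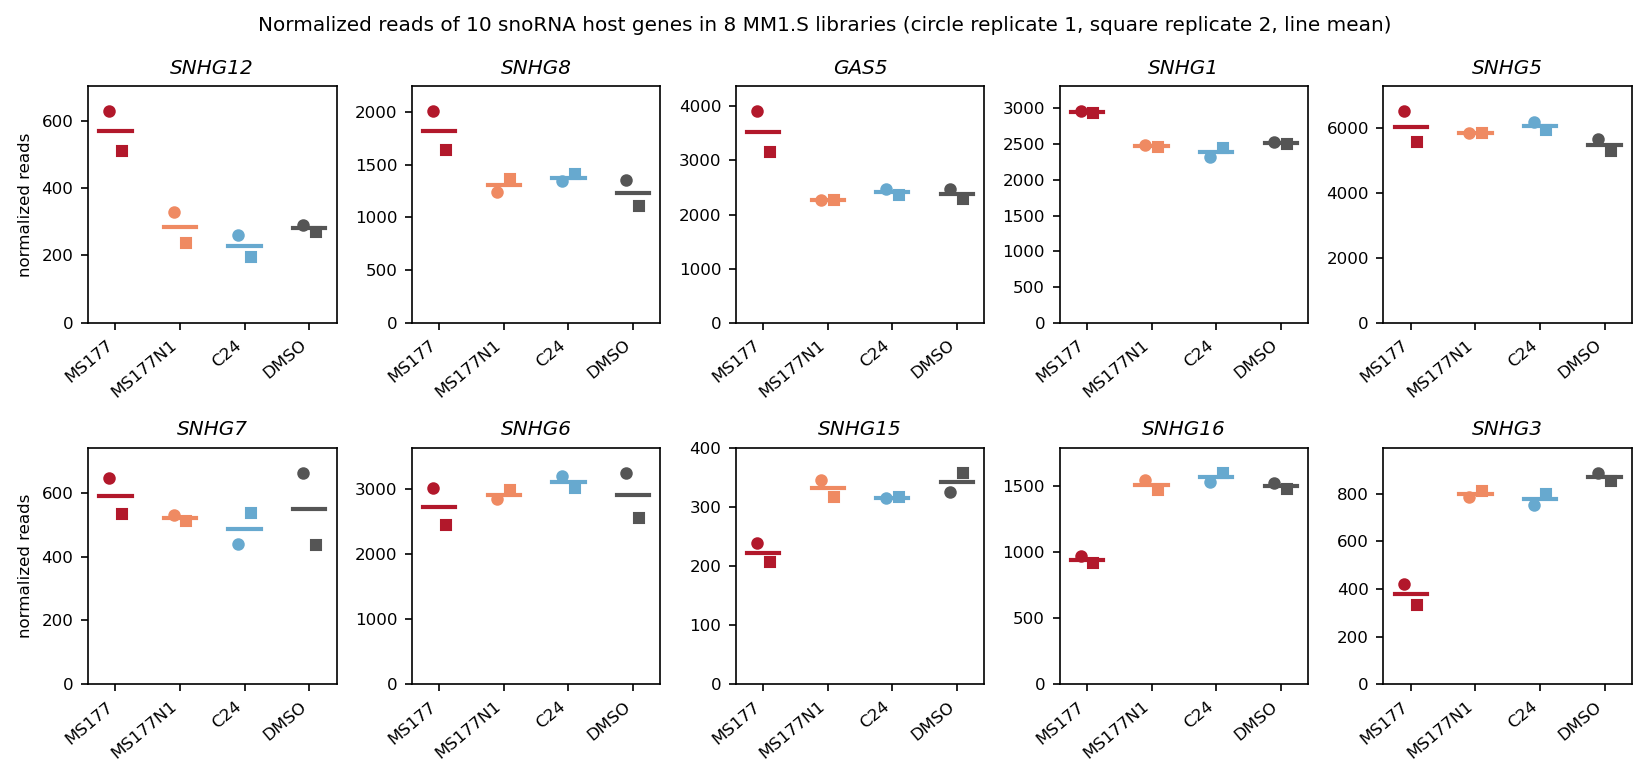
Normalized reads of the 10 host genes in each of the 8 libraries, with a panel per gene and the groups along the horizontal axis; circles are replicate 1, squares replicate 2 and lines the group means, and each vertical axis starts at 0. SNHG12 reads 628.0 and 509.7 with MS177 against 291.7 and 269.2 with DMSO, and SNHG3 reads 422.2 and 333.9 with MS177 against 887.1 and 853.7 with DMSO.

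SNHG3 and SNHG12 lie on the same stretch of chromosome 1, with RCC1 and TRNAU1AP as the only protein-coding genes between them in RefSeq, and they moved in opposite directions. RCC1 encodes the chromatin-bound exchange factor of the GTPase Ran, and TRNAU1AP a protein that works with the selenocysteine transfer RNA. RCC1 had 2148 and 2073 normalized reads with MS177, 3111 and 3086 with MS177N1, 3150 and 3243 with C24, and 2996 and 2934 with DMSO. It fell by 0.49 ± 0.05 (SE) on the log2 scale (limma adjusted p = 7.52e-07), beside a change of -1.21 in SNHG3, with which it overlaps on the same strand over 5.92% of the exon bases of SNHG3, so the 2 genes' reads may in part be shared. TRNAU1AP, which overlaps SNHG12 on the other strand in 0.188% of the exon bases of SNHG12, was not called, with a log2 fold change of -0.10 ± 0.09 (SE, limma adjusted p = 0.398). Whether the authors counted by strand is not given in the sources used here.

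Other overlaps touch less abundant neighbours. SNHG6 shares 29.3% of its exon bases with MCMDC2 and SNHG7 25.2% with FAM69B, each on the other strand. MCMDC2 had 3.21 to 8.42 normalized reads with MS177 and 5.77 to 19.8 with DMSO, and FAM69B had 5.36 to 10.3 with MS177 and 12.1 to 25 with DMSO, which is little beside the reads of the hosts, and neither was called. SNHG16 shares 30.6% with AC015802.6, a gene that is not listed.

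SNHG5, SNHG6 and SNHG7 did not pass the test. SNHG5, the host of SNORD50A and SNORD50B, had 6507 and 5562 normalized reads with MS177, 5856 and 5851 with MS177N1, 6190 and 5919 with C24, and 5667 and 5299 with DMSO. The MS177 libraries spanned those of every other group except the lower DMSO library. The log2 fold change against DMSO was 0.13, with a 95% confidence interval from -0.00163 to 0.27 (limma adjusted p = 0.0845). Against C24 it was -0.00895 (limma adjusted p = 0.915) and against MS177N1 0.04 (limma adjusted p = 0.620). C24 against DMSO gave 0.14, about as much as MS177. SNHG5 depended on the settings for its call with MS177 against DMSO. It was called with scaling by total reads, at 0.22 (limma adjusted p = 0.00694), with the replicate number as a block, at the same 0.13 (limma adjusted p = 0.0347), and without MS177 replicate 2, at 0.25 (limma adjusted p = 0.000423).

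SNHG6, the host of SNORD87, had 3007 and 2439 normalized reads with MS177, 2839 and 2971 with MS177N1, 3196 and 3002 with C24, and 3240 and 2552 with DMSO. SNHG7, the host of SNORA17A and SNORA17B, had 645.1 and 532.2 with MS177, 529.8 and 510.2 with MS177N1, 438.2 and 535.3 with C24, and 662.6 and 437.4 with DMSO. In both genes the DMSO replicates were further apart than the group means. The log2 fold changes with MS177 against DMSO were -0.09 for SNHG6, with a 95% confidence interval from -0.40 to 0.22, and 0.12 for SNHG7, with an interval from -0.31 to 0.56. SNHG7 was called only without DMSO replicate 1, at 0.42 (limma adjusted p = 0.0247).

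The class of snoRNA carried did not sort the hosts by direction. Box H/ACA snoRNAs lie in SNHG12 and SNHG8, which rose, and in SNHG3 and SNHG15, which fell. Box C/D snoRNAs lie in GAS5 and SNHG1, which rose, and in SNHG16, which fell. The snoRNAs themselves were hardly measured: 8 snoRNA or small Cajal body RNA names were listed, 3 passed the filter on low values and none was called with MS177 against DMSO by limma, with 0 at an unadjusted p under 0.05. SNORD3B-1, a gene copy of the U3 snoRNA and highest of these, had 10.7 and 15.9 normalized reads with MS177 and 19.8 and 22.1 with DMSO (limma adjusted p = 0.201); near-identical copies make its reads uncertain. Against the other compounds it was called lower with MS177, at -1.56 against MS177N1 (limma adjusted p = 0.00430), whose libraries had 36.7 and 44.6, and at -1.84 against C24 (limma adjusted p = 0.00120), whose libraries had 76.2 and 32.1. SCARNA15, a small Cajal body RNA, was called higher with MS177 against C24 (limma adjusted p = 0.0129), with 5.36 and 11.2 normalized reads with MS177 and 1.71 and 0 with C24.

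A layout that exposes a spliced RNA to NMD was common in these genes. Transcripts annotated as retained introns, and those of 1 exon, were left out here, so 79 of the hosts' 129 annotated transcripts remain, 1 of them for SNHG3. Of these 79 spliced transcripts, 69 (87.3%) had an exon junction more than 50 bases after the stop of the reading frame that opens at the first AUG. The share was 71.2% of 25123 other spliced long noncoding transcripts in GENCODE v29. All 10 such transcripts of GAS5 and all 7 of SNHG12 had one, as did 11 of 12 of SNHG1 and 3 of 5 of SNHG8. Among hosts that fell the counts were 5 of 7 for SNHG16, 8 of 10 for SNHG15 and 0 of 1 for SNHG3. The transcripts of a gene overlap, so they are not independent, and decay was not measured.

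Promoters were searched for 2 motifs. In windows of 300 bases that begin upstream of the RefSeq start and end just after it (GRCh38.p14), found for 8 of the 10 hosts and searched on both strands, the E-box CACGTG of MYC-type factors was in 1 host promoter, that of SNHG7, against 7.26% of 35116 promoters. SNHG6 and SNHG15 had no window, and the letters CACGTG do occur in the 5′ end of SNHG15 printed above. The composite C/EBP-ATF site TGATGCAA, or TTGCATCA on the other strand, was in 0 of the 8, against 0.866% of all promoters.

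In the compounds that are not the degrader, no host was called. MS177N1 against DMSO gave log2 fold changes from -0.12 to 0.10, with 95% confidence intervals within -0.49 to 0.38, and 0 of 10 hosts were at an unadjusted p under 0.05. C24 against DMSO gave values from -0.31, in SNHG12, to 0.17, in SNHG8, with intervals within -0.69 to 0.42. SNHG5, at 0.14, was the 1 host with an unadjusted limma p under 0.05 there, and its limma adjusted p was 0.908. Over all genes 0.0353% were called with MS177N1, every one of them lower, and 0.0918% with C24 (0.0212% higher, 0.0706% lower), so a count of 0 among 10 is near that background. The intervals leave room for changes as large as those of SNHG1 with MS177 in most of these genes, while for GAS5 the upper bounds were 0.11 with MS177N1 and 0.20 with C24.

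MS177N1 against C24, at the same dose and time, called 0 of 10 hosts, with log2 fold changes from -0.09 to 0.31, intervals within -0.40 to 0.68 and 0 hosts at an unadjusted p under 0.05; 0.0141% of all genes were called. The widest of these differences was in SNHG12, with 329.4 and 236.5 normalized reads with MS177N1 and 260.2 and 194.7 with C24, whose libraries overlapped. Between the degrader and each of the other compounds, 4 hosts were higher and 3 lower in either comparison, beside 57.4% of all genes called against MS177N1 (28.8% higher, 28.6% lower) and 58.1% against C24 (29.1% higher, 29.0% lower). These comparisons share the MS177 libraries, so they are not independent of each other. Set against all 6 other libraries at once, both MS177 libraries were highest for 4 hosts and lowest for 3, as they were for 33.2% and 31.7% of all tested genes.

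**Figure D3:**
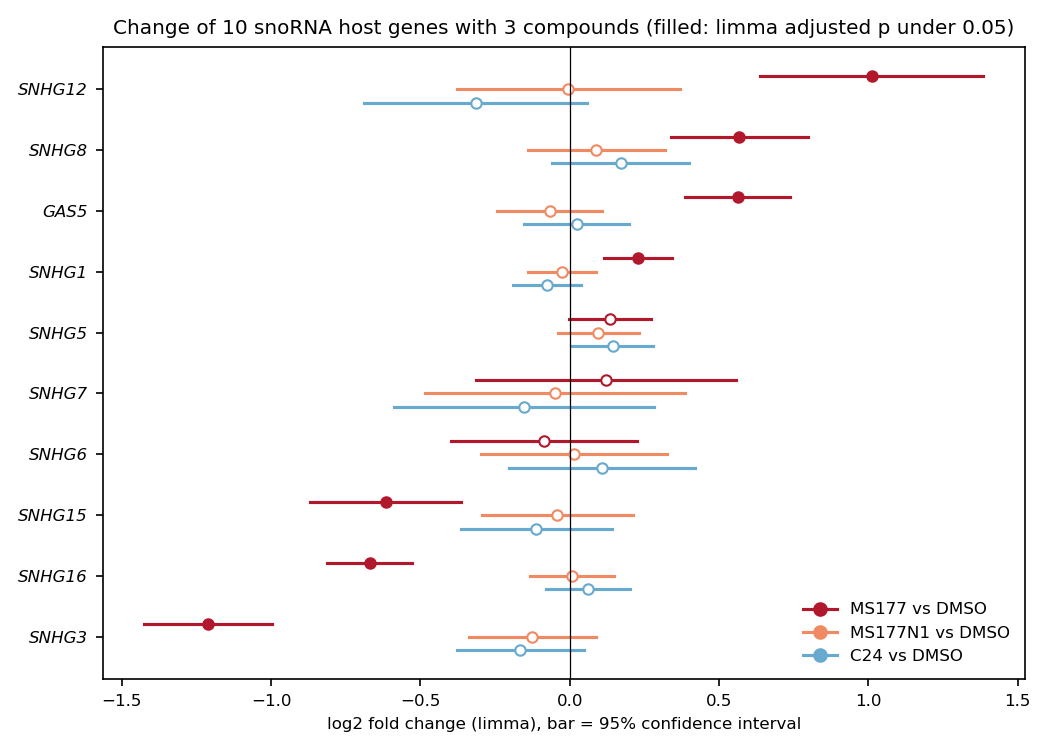
Log2 fold change against DMSO of the 10 host genes with MS177, MS177N1 and C24, with 95% confidence intervals from limma; filled points had a limma adjusted p under 0.05. The MS177 values run from 1.01 in SNHG12 to -1.21 in SNHG3, whereas those of MS177N1 and C24 lie between -0.31 and 0.17 and none is filled.

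Other noncoding hosts of snoRNAs also moved in both directions. Of 25 on the list, 17 were listed in the data and 16 passed the filter on low values. With MS177 against DMSO, 4 rose, 3 fell, 9 did not pass the test and the median log2 fold change was -0.05. EPB41L4A-AS1 rose by 1.00 ± 0.10 (SE, limma adjusted p = 2.89e-07), with 889.4 and 784.7 normalized reads with MS177 and 432.5 and 403.8 with DMSO. SNHG21 fell by 1.16 ± 0.19 (SE, limma adjusted p = 8.23e-05) and SNHG4 by 1.11 ± 0.17 (SE, limma adjusted p = 3.43e-05). DANCR, which has been described as a brake on differentiation, fell by 0.71 ± 0.07 (SE, limma adjusted p = 3.01e-07). Among all 430 long noncoding RNAs tested, 18.8% were called higher and 11.6% lower beside 28.9% and 29.0% of all genes, with a median of 0.14. These 430 passed the filter on low values out of 614 listed, beside 14164 of all 16295 genes. Levels were not matched between this class and all genes, so the lower shares need not mean a weaker response.

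Among protein-coding hosts more fell than rose. Of 52 on the list, 49 of which have a snoRNA inside their RefSeq span, all passed the filter; 29 fell (55.8%), 5 rose (9.62%) and the median log2 fold change was -0.12, beside 29.0% lower and 28.9% higher over all genes. HSPA8, the constitutive heat shock protein 70, had 13320 and 14630 normalized reads with MS177 and 38190 and 40690 with DMSO, a log2 fold change of -1.50 ± 0.04 (SE, limma adjusted p = 6.93e-13). The nucleolar proteins followed at smaller sizes: nucleolin (NCL) changed by -0.84, the box C/D core protein NOP56 by -0.73 and the nucleostemin gene GNL3 by -0.65, each called.

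Among 19 genes for proteins of snoRNPs and their assembly, 13 fell, 2 rose and 4 did not pass the test, with a median of -0.46. These are 68.4% lower and 10.5% higher, beside 29.0% and 28.9% of all genes. TCOF1, a nucleolar factor for ribosomal RNA transcription and modification, changed by -1.05 ± 0.05 (SE, limma adjusted p = 2.93e-10), with 1898 and 1962 normalized reads with MS177 and 3843 and 4134 with DMSO. NHP2, a core protein of box H/ACA particles, changed by -0.86, and the C/D core proteins NOP56 and NOP58 by -0.73 and -0.65. NOP56 and DKC1 are on both this list and that of the protein-coding hosts.

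TOP messenger RNAs share their kind of start with many hosts. Of 16 that do not encode ribosomal proteins, 7 fell (43.8%) and 4 rose (25%), with a median of -0.05, beside 29.0% lower and 28.9% higher over all genes. The elongation factor EEF1A1 changed by -0.66, nucleophosmin (NPM1) by -0.42, the poly(A)-binding protein PABPC1 by -0.35 and vimentin (VIM) by -0.33, each called. Among the 77 genes for cytosolic ribosomal proteins the counts were 35 lower and 1 higher, with a median of -0.12.

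Genes for NMD factors and for other factors of RNA decay and translation release moved in both directions. Of 26 decay and release factors, 13 rose (50%) and 7 fell (26.9%), with a median of 0.19, beside 28.9% higher and 29.0% lower over all genes. The scavenger decapping enzyme DCPS fell by 1.54 ± 0.08 (SE, limma adjusted p = 1.28e-10), with 625.8 and 537.8 normalized reads with MS177 and 1685 and 1696 with DMSO. SMG9, a partner of the NMD kinase SMG1, rose by 1.07, the NMD endonuclease SMG6 by 0.69 and the exonuclease XRN1 by 0.69. Of 16 genes with messenger RNAs known as NMD-sensitive, 8 rose (50%) and 4 fell (25%), with a median of 0.22. The 4 that fell were SRSF2 at -0.85, SRSF6 at -0.63, TRA2B at -0.38 and SRSF3 at -0.34. Values are per gene, so splice forms that NMD degrades and forms that it spares were not told apart. The largest changes were in ATF3 at 4.21, DDIT3 at 4.06, CARS at 1.70 and ATF4 at 1.49, and all 4 are also known as genes of the integrated stress response.

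With MS177N1 and with C24 against DMSO, 0 genes were called in each of the lists named above, beside 0.0353% and 0.0918% of all genes. At an unadjusted limma p under 0.05 there were 718 of all 14164 genes with MS177N1 and 762 with C24. Among these were 6 of the 77 ribosomal protein genes with MS177N1 and 16 with C24, 3 of the 52 protein-coding hosts with MS177N1 and 7 with C24, and 2 of the 19 snoRNP genes with MS177N1 and 0 with C24. The lists were drawn up by hand from textbook knowledge, except the long noncoding class and the ribosomal protein genes, which were taken by annotation and name, and no test of a list was made. They are not independent: 27 ribosomal protein genes and 4 of the other TOP genes (EEF1B2, EEF2, GNB2L1 and TPT1) are also protein-coding hosts, and SMG5 is both an NMD factor and an NMD-sensitive messenger RNA.

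**Figure D4:**
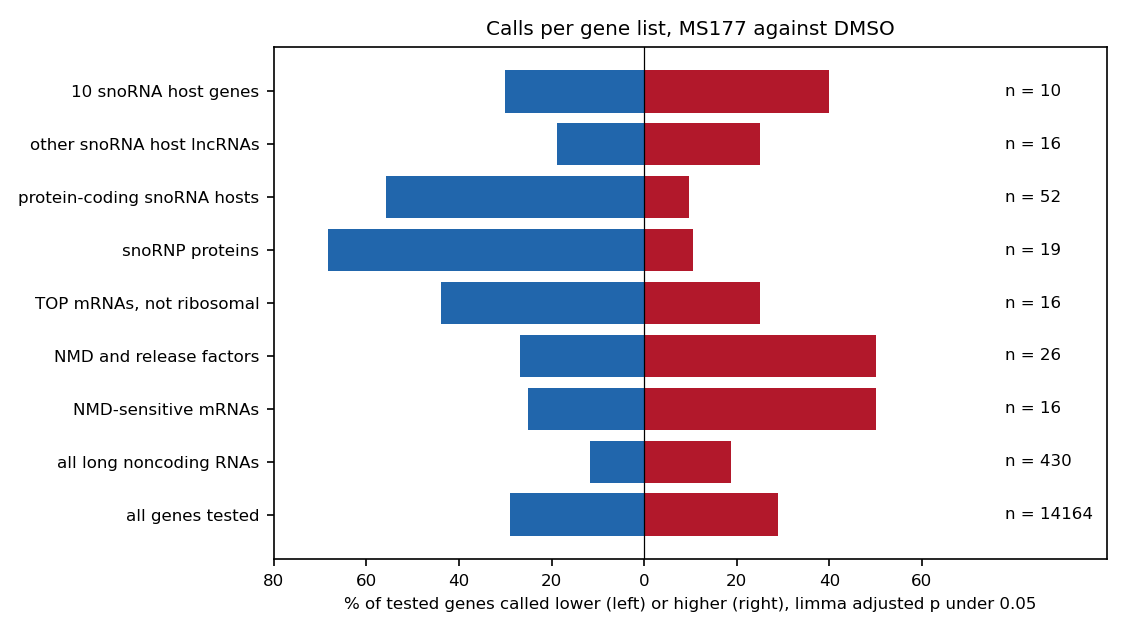
Share of the tested genes of each list called higher (right) or lower (left) with MS177 against DMSO at a limma adjusted p under 0.05, in %, with the number of genes tested (n). The 10 host genes stand at 40% higher and 30% lower, beside 28.9% and 29.0% of all genes tested; the snoRNP proteins reach 68.4% lower.

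Over the 8 libraries, the genes with the smallest root mean square difference from the centred log2 profile of GAS5 were the glutathione peroxidase GPX1 at 0.0437, the growth arrest and DNA damage gene GADD45A at 0.0460, SBF2 at 0.0498, LSR at 0.05003 and GRINA at 0.0526. GADD45A, itself on the list of NMD-sensitive messenger RNAs, had 1899 and 1468 normalized reads with MS177, 1053 and 1083 with MS177N1, 1159 and 1091 with C24, and 1078 and 1026 with DMSO. The median profile of the 10 hosts, in which rises and falls nearly cancel, was closest to TMEM186, ERF, TOX2, SLC25A6 and SH3BP1, with differences of 0.0307 to 0.0374, and of these TOX2 alone was called with MS177 against DMSO, at 0.21 (limma adjusted p = 0.0325).

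Plasma-cell markers were abundant in all libraries. The 8 markers summed to 87770 to 89540 normalized reads with MS177 and 114100 to 115100 with DMSO. Of the 8, 6 fell (75%) and 1 rose (12.5%), beside 29.0% lower and 28.9% higher over all genes. SDC1 changed by -1.21 and TNFRSF17 by -1.04, and the other falls ran from -0.49 in MZB1 to -0.20 in SLAMF7. XBP1 rose by 0.11 (limma adjusted p = 0.0183), and CD38 was not called (limma adjusted p = 0.638). Of 18 markers of other cell types, 13 were listed and 9 passed the filter. Of these 9, 5 rose (55.6%) and 1 fell (11.1%), beside 28.9% higher and 29.0% lower over all genes. Of the 5, AIF1 and CD163 passed the filter only through the MS177 libraries. Their rise was therefore built in by the filter and lends no weight to that count. The listed markers summed to 1730 to 1860 with MS177 and 415.0 to 493.2 with DMSO. Most of that sum was CD68, a lysosomal protein of macrophages that other cells also make, with 1585 and 1471 normalized reads with MS177 and 281.8 and 355.7 with DMSO. The other 3 of the named markers that rose most are macrophage or myeloid genes at low level. AIF1 had 51.4 and 42.1 normalized reads with MS177 and 3.30 and 0 with DMSO (limma adjusted p = 0.00156), CD163 had 24.7 and 24.3 with MS177 and 0 and 0.961 with DMSO (limma adjusted p = 0.00541), and the integrin gene ITGAM had 61.1 and 73.0 with MS177 and 14.3 and 12.5 with DMSO (limma adjusted p = 0.000574). The stromal marker COL1A1 also rose, with 50.4 and 33.7 with MS177 and 6.60 and 14.4 with DMSO (limma adjusted p = 0.00317). The T cell marker CD3E fell, with 33.2 and 29.9 with MS177 and 75.9 and 61.5 with DMSO (limma adjusted p = 0.00251). CD14, a monocyte marker that did not pass the filter and was not tested, had 9.64 and 10.3 with MS177 and 7.70 and 9.61 with DMSO, and LYZ was not listed. The part of these shifts in the changes of the host genes was not tested.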

How the data were processed

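RNA-seq libraries from MM1.S cells were analysed, 2 in each of 4 groups. The deposited values are log2-scale expression values per gene that the authors had normalized, per the file headers. The submitters' processing notes name DESeq2 1.38.2, Salmon 0.1.19, STAR 2.4.2 and hg19 without their roles. The values have the form of a variance-stabilizing transformation whose value for 0 reads is 5.967655733. Inverting it gave whole reads, within 0.01, for 130360 of 130360 values, and the size factors equalled median-of-ratios factors.

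The filter kept 14164 genes that, in 2 or more libraries, reached the equivalent of 10 reads in a library of median size and had 15 or more in total; 2131 were left out. limma 3.58.1 (trend, robust; statmod 1.5.0, R 4.3.3) was run on log2(reads / size factor + 1), with all 4 groups in 1 fit, 6 comparisons, two-sided tests and Benjamini-Hochberg adjustment over all tested genes. The script was tested on simulated data with far fewer changed genes than were called here. That test therefore does not cover the scaling or the call rates under so broad a change. Fold changes on this scale slightly understate those of low genes. A quasi-likelihood count test was planned only for deposited raw counts, so it was not run on the recovered reads. The recovered reads were also fitted with voom, as an alternative.

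The members and lists were chosen with earlier results of these data known. Named genes are the members, up to 4 genes per list with the largest called change, and the 5 closest to GAS5 or to the members' median profile. SLC3A2, ZBTB37, RCC1, TRNAU1AP, MCMDC2, FAM69B, EZH2 and CD14 were named for their position or role. SRSF2, SRSF3, SRSF6, TRA2B, COL1A1, CD3E, SLAMF7 and XBP1 were named as further called genes of their lists. CD38 was named as the plasma-cell marker that was not called. Hosted snoRNAs come from RefSeq (GRCh38.p14) gene spans, transcripts from GENCODE v29. Alternatives changed the scaling, filter, pseudocount, scale, weighting, groups in the fit, block and library set.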

Additional observations from a re-analysis of the deposited data

How the results depend on the processing

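All 7 calls of host genes with MS177, against DMSO, MS177N1 and C24, kept their direction and passed the limma threshold under each of the 17 alternatives: TMM or total-read scaling, no filter, pseudocounts of 0.5 and 5, the deposited values as they stand, voom, only the groups compared, the replicate block and leaving out each library in turn. Over 10 hosts, 6 comparisons and 17 alternatives, 1015 of 1020 values stayed on their side of the threshold and 5 came to pass it. The 5 were of SNHG5 and SNHG7. No change of sign involved a called value, but some values that were not called did change sign. With MS177 against DMSO, the log2 fold change ranged from -0.26 to 0.09 for SNHG6 and from -0.18 to 0.42 for SNHG7. SNHG5 was called against DMSO with total-read scaling, with the block (limma adjusted p = 0.0347) and without MS177 replicate 2, and against MS177N1 without MS177 replicate 2, at 0.15 (limma adjusted p = 0.0188). With MS177 against DMSO the log2 fold change ranged over the alternatives from 0.79 to 1.16 for SNHG12, 0.41 to 0.72 for GAS5, 0.42 to 0.71 for SNHG8, 0.22 to 0.31 for SNHG1, -1.38 to -1.01 for SNHG3, -0.71 to -0.59 for SNHG16 and -0.72 to -0.45 for SNHG15. Host calls with a library left out numbered 7 to 8 against DMSO. Over all genes, 5 were called with MS177N1 against DMSO; there were 3 with total-read scaling, 9 with a pseudocount of 5, 8 with the deposited values, 8 with voom, 17 with only the 2 groups, 11 with the replicate block, and 0 to 19 with a library left out. With C24 against DMSO 13 were called, 20 with the replicate block, and 10 to 28 with a library left out. The highest of these counts came when 1 MS177 library was left out (replicate 1 or 2), 19 or 18 for MS177N1 and 28 or 27 for C24; the cause was not tested. Over all tested genes, correlations of same-numbered deviations ran from -0.06 to 0.06. That does not settle whether the hosts' replicates were paired. Higher in replicate 1 were 10 of the 10 hosts in MS177, 9 in DMSO, 7 in MS177N1 and 4 in C24. Apart from SNHG5, the block changed no call of a host. Where a library is left out, the lone one is assumed to vary like the other groups. With 2 libraries a group, log2 fold changes had a median SE of 0.11, so changes of about the size of that of SNHG1 could be called only in evenly measured genes.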
